A study of Drosophila melanogaster with 12 samples.

Results

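The mitochondrial genome of Drosophila melanogaster was covered by 30 of the 6353 regions in which ATAC-seq reads were counted. These are all regions placed on the mitochondrial chromosome, 20 of 3447 where the table is labelled fat body and 10 of 2906 where it is labelled gut. Each region was assigned to the mitochondrial gene it overlaps by the most bases. COX1, COX2, ATP6, CYTB and ND4, genes for subunits of respiratory complexes and the ATP synthase, are described first. COX1, COX2 and CYTB had regions in both tables, while ATP6 and ND4 had theirs in the table labelled fat body alone.

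Mitochondria carry their own small circular genome, which is present in many copies per cell and encodes core subunits of the complexes that pump protons and make ATP. COX1 and COX2 form the catalytic core of cytochrome c oxidase, the complex that passes electrons to oxygen. CYTB is the cytochrome b of the complex that precedes it, ND4 is a membrane subunit of NADH dehydrogenase, and ATP6 is a subunit of the proton channel of the ATP synthase. The genes have no introns, and the genome is packed by the protein TFAM and not by nucleosomes. Tn5, the transposase that inserts sequencing adapters in ATAC-seq, therefore meets a different substrate there than in nuclear chromatin, and counts on it do not measure nucleosome positions.

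All flies were adult females of the genotype S106_UASfoxo, in which the steroid RU486 lets the driver S106 switch on UAS-foxo, a transgene for the forkhead factor of insulin signalling. S106 is known to be active in adult fat body and in parts of the digestive tract. Switched flies received 200 µM RU486 over 21 days and then food without it over 7 days. Control flies carry the induction label RU486-, which is what separates them, since the treatment text is the same for every sample. All were kept on 10% yeast and 5% sucrose and mated for 48 h. There is no group with RU486 and without the transgene, so drug and induction cannot be told apart. Nuclei of dissected fat body and gut were washed and tagmented, with 3 libraries in each of the 4 groups. How many animals a library holds, and whether replicates came from separate animals, is not stated, so the spread between libraries may be technical.

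Total counts were 1053117 to 1186153 in control and 811020 to 977245 in switched libraries labelled fat body, so that total counts alone separate these groups. In those labelled gut they were 519099 to 709659 in 4 libraries, and 111244 and 99191 in control and switched replicate 1. Marker genes went against the tissue labels. The table labelled fat body had regions at 3 of 10 fat body markers and 7 of 11 gut markers, and the table labelled gut at 8 of 10 fat body markers and 1 of 11 gut markers. As a share of the counts on chromosome arms, fat body markers held 0.740% to 1.16% labelled gut and 0.0252% to 0.330% labelled fat body. Gut markers held 0% to 0.0477% labelled gut and 0.200% to 0.731% labelled fat body. The tissue is therefore given as labelled throughout.

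The annotation used here, of Release 6, lists 13 protein genes, 22 tRNA genes and 2 rRNA genes on the mitochondrial genome. Both rRNA genes carried regions in either table, together with 9 of the 13 protein genes labelled fat body and 4 labelled gut. Labelled fat body, COX1 carried chrM:1314-2877, which starts within trnW and runs over trnC and trnY, and chrM:2959-3031, which spans the end of COX1 and the start of trnL1. They covered 94.7% of the gene. Labelled gut, a single region, chrM:1309-3146, covered the whole gene and reached into the start of COX2.

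The other named genes were covered in part. COX2 had chrM:3517-3658 labelled fat body and chrM:3527-3682 labelled gut, ATP6 had chrM:4469-4546 and ND4 had chrM:8612-8738. CYTB had chrM:10598-11135 and chrM:11300-11398 labelled fat body, and chrM:10734-11087 and chrM:11271-11558 labelled gut. All of these lie inside the annotated span of their gene. Between chrM:3527-3682 and chrM:10734-11087 the table labelled gut has no region, a stretch that holds ATP6, COX3, ND5 and ND4 among others. A stretch without a region has no counts here, which does not say that it had no reads.

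Mitochondrial regions made up 0.580% of the regions and 0.863% of the summed region length labelled fat body, and 0.344% and 0.814% labelled gut. They held 75.8% to 88.6% of the counts of a library labelled fat body and 69.2% to 87.6% labelled gut. Summed over its 6 libraries, 1 of 3427 regions elsewhere in the table labelled fat body exceeded the lowest region at a mitochondrial gene, and 1 of 2896 did so labelled gut.

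Values of the 3 libraries of a group are given below in the order of replicates 1, 2 and 3. Labelled fat body, mitochondrial regions held 1049367, 1006900 and 888397 counts in control flies against 741486, 817027 and 614974 in switched flies, every switched library being below every control library. All other regions held 136786, 129657 and 164720 counts against 229212, 160218 and 196046, where control replicate 3 and switched replicate 2 overlap. The mitochondrial share had a control mean of 87.1% ± 2.41 and a switched mean of 78.6% ± 4.34 (SD, n = 3 each), with an exact two-sided permutation p of 0.1, the smallest that 3 against 3 libraries allow. The log2 ratio of mitochondrial to all other counts differed by -0.88, switched minus control (exact permutation p = 0.1). A smaller mitochondrial and a larger nuclear yield cannot be told apart in a share, nor can fewer mitochondrial genomes per cell and their loss while nuclei were washed.

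Marker lists of other cell types were also compared between the groups. Labelled fat body, and again as a share of the counts on chromosome arms, muscle markers held 0.0263% to 0.0949% in control and 0.161% to 0.257% in switched libraries. Ovary markers held 0.00124% to 0.0244% against 0.107% to 0.151%, and haemocyte markers 0% to 0.0103% against 0.0378% to 0.0653%. Each list rests on 1 gene with a region, sls of 5 muscle, zpg of 4 ovary and eater of 3 haemocyte markers, and defining markers such as Mhc and Act88F had no region. The groups overlapped for fat body markers (0.0252% to 0.251% against 0.237% to 0.330%) and for gut markers (0.200% to 0.731% against 0.326% to 0.435%). Labelled gut, they overlapped for muscle and ovary markers. Labelled fat body, tested regions outside the mitochondrial genome had a median log2 fold change of 0.27 under the TMM scaling used below. With library totals it was 0.95, and neither scaling is the share of arm counts used for the markers. How many regions separate upwards was not counted, so the separation of these lists is not shown to be unusual. The part of muscle, ovary or haemocyte cells in the mitochondrial share was not tested.

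Labelled gut, the share was 69.2%, 84.9% and 78.0% in control flies against 77.7%, 80.4% and 87.6% in switched flies. The groups overlapped, and the means of 77.3% ± 7.88 and 81.9% ± 5.13 (SD, n = 3 each) had an exact two-sided permutation p of 0.5. Without both shallow libraries numbered 1 the difference was 2.58 percentage points in place of 4.56. With 1 library left out it was 0.461 points without control replicate 1, 1.71 without switched replicate 3 and 8.32 without control replicate 2. The change labelled fat body minus that labelled gut was -13.1 points, with an exact p of 0.05 over 400 arrangements of the group labels within each tissue. The null of these arrangements is no change in either tissue. A change in 1 tissue alone can thus give a small p, which does not show that the changes differ. It was -11.0 points with an exact p of 0.035 where only chromosome arms made up the rest of the counts, and -11.1 points with an exact p of 0.0833 without both shallow libraries. Whether it passes 0.05 thus depends on which counts and libraries are used.

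**Figure D1:**
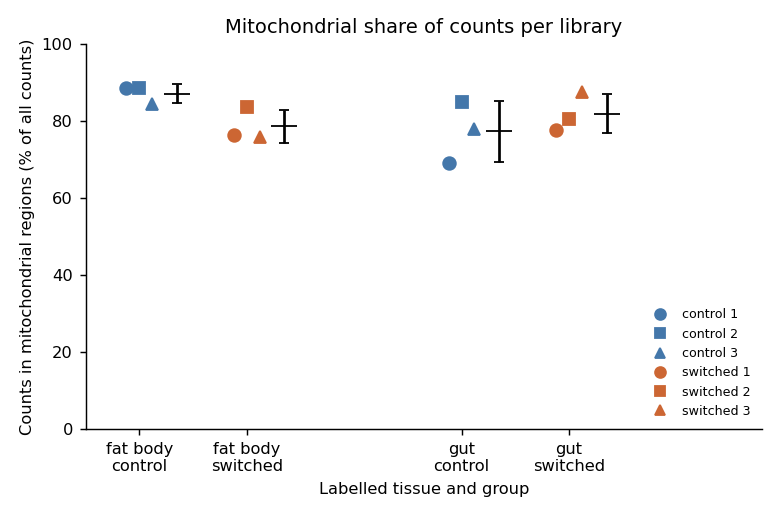
Counts in mitochondrial regions as percent of all counts (y axis) in each library, by labelled tissue and group (x axis), with the mean ± SD of 3 libraries. Labelled fat body, the switched libraries lie between 75.8% and 83.6% and the control libraries between 84.4% and 88.6%, and labelled gut the groups overlap.

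Within the mitochondrial genome the counts were uneven. Each region's share of the mitochondrial counts of its library was divided by the region length, which gives a level in percent per kb. Among regions at genes labelled fat body, this level was lowest at ND2, the gene of another NADH dehydrogenase subunit, with 8.21% and 5.60% per kb at its regions (means of 6 libraries). The long COX1 region had 22.4% per kb and the short one 33.0%.

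ATP6 had the highest mean level, 58.5% per kb, with a range of 45.1% to 69.2% over the 6 libraries. COX3, the gene of the next oxidase subunit, stood at 43.7%, ND4 at 42.2%, COX2 at 40.4% and ND5 at 39.8% per kb. The ranges of these 4 overlapped one another and that of ATP6, and the order among the 4 changed between libraries. Within libraries, ATP6 was above COX3 in all 6. It was above COX2, ND4 and ND5 in all but switched replicate 3, where these had 51.8%, 51.2% and 47.4% against 45.1% per kb. Both CYTB regions were close to each other, at 24.8% and 24.9% per kb. ND1, at higher positions, had 23.8% and 10.2% per kb at its regions. The rRNA genes, at higher positions still, had 19.8% and 20.0% at lrRNA and 13.3% and 15.8% at srRNA.

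If a read that only reaches into a region is counted in full, short regions are lifted, but the counting rule is not given. Over regions at genes, Spearman's correlation of length with level was -0.43 labelled fat body and 0.12 labelled gut. With 100 bp added to every region length labelled fat body, COX3 ranked first at 29.2% per kb, followed by ATP6 at 25.7%. COX2 stood at 23.7%, ND4 at 23.6%, the long COX1 region at 21.1% and ND5 at 20.2%. The ND2 region chrM:533-763 was again the lowest at a gene, at 3.91%. The first place of ATP6 thus depends on how length is counted.

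Labelled gut, COX2 was highest at 48.3% per kb, or 29.5% with 100 bp added. The first CYTB region had 35.7%, COX1 26.8% and the second CYTB region 24.0%. The srRNA region stood at 19.7%, lrRNA at 18.9% and the ND2 regions, again the lowest at a gene, at 10.7% and 8.46% per kb. Regions were called separately for each tissue and have different ends, so levels of the tables are given side by side without a test.

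**Figure D2:**
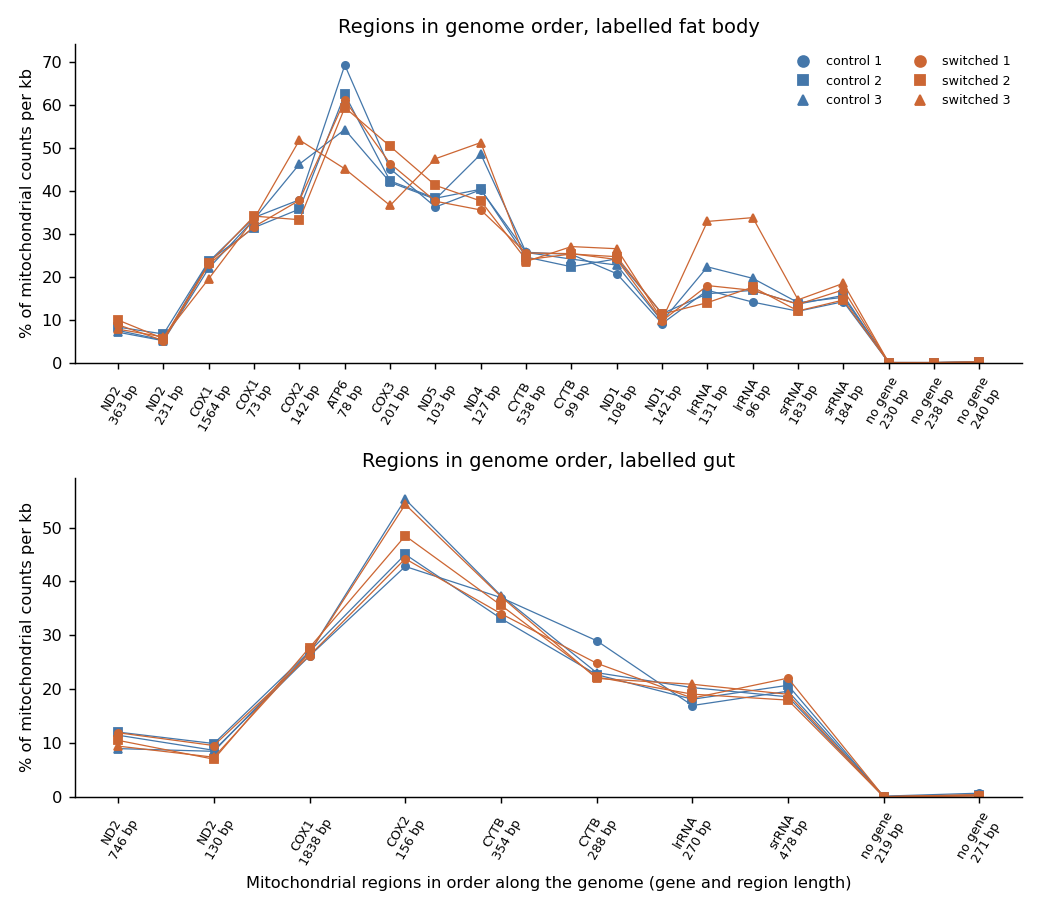
Percent of mitochondrial counts per kb of region (y axis) for each mitochondrial region in genome order (x axis, with gene and region length), labelled fat body (top) and labelled gut (bottom); each line is 1 library. Levels are low at ND2, highest at ATP6 in 5 of 6 libraries labelled fat body and at COX2 in the others, and near 0 where no gene is annotated.

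The share of mitochondrial counts at each gene was then compared between switched and control libraries, which removes the total amount of mitochondrial DNA. COX1 held 39.2%, 39.2% and 36.8% in control flies labelled fat body against 38.0%, 38.6% and 33.0% in switched flies. The groups overlapped, with means of 38.4% ± 1.39 and 36.5% ± 3.09 (SD, n = 3; exact two-sided permutation p = 0.5). Labelled gut, COX1 held 48.1%, 49.6% and 49.3% against 48.2%, 51.0% and 49.2%. Its means there of 49.0% ± 0.809 and 49.5% ± 1.38 differed by less than the SD of either group (exact permutation p = 0.7, n = 3). The larger share labelled gut goes with a longer region, 1838 bp against 1637 bp in all, and with fewer other regions.

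COX2 was covered by 1 short region per table. Labelled fat body it held 5.38%, 5.07% and 6.56% in control against 5.36%, 4.72% and 7.35% in switched flies (means 5.67% ± 0.786 and 5.81% ± 1.37, SD, n = 3; exact permutation p = 0.9). Labelled gut it held 6.67%, 7.02% and 8.62% against 6.90%, 7.56% and 8.47% (means 7.44% ± 1.04 and 7.64% ± 0.790, SD, n = 3; exact permutation p = 0.8). The groups overlapped in both tables, and in each of the 4 groups replicate 3 had the highest COX2 share.

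CYTB was the steadiest gene labelled fat body. It held 16.3%, 15.4% and 16.2% in control against 16.2%, 15.4% and 15.3% in switched flies (means 16.0% ± 0.477 and 15.6% ± 0.509, SD, n = 3; exact permutation p = 0.4). Its coefficient of variation over the 6 libraries was 3.00%, against 34.5% for lrRNA. Labelled gut, it held 21.4%, 18.3% and 19.9% against 19.2%, 19.0% and 19.5% (means 19.9% ± 1.60 and 19.2% ± 0.251, SD, n = 3; exact permutation p = 0.7). Here the shallow control replicate 1 was highest.

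ATP6 and ND4 had values labelled fat body alone. ATP6 held 5.40%, 4.87% and 4.23% in control against 4.76%, 4.63% and 3.52% in switched flies (means 4.83% ± 0.585 and 4.30% ± 0.683, SD, n = 3; exact permutation p = 0.4). ND4 held 5.11%, 5.12% and 6.16% against 4.51%, 4.78% and 6.50% (means 5.46% ± 0.603 and 5.26% ± 1.08, SD, n = 3; exact permutation p = 0.7). Replicate 3 was lowest of its group for ATP6 and highest for ND4, and the groups overlapped for both.

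**Figure D3:**
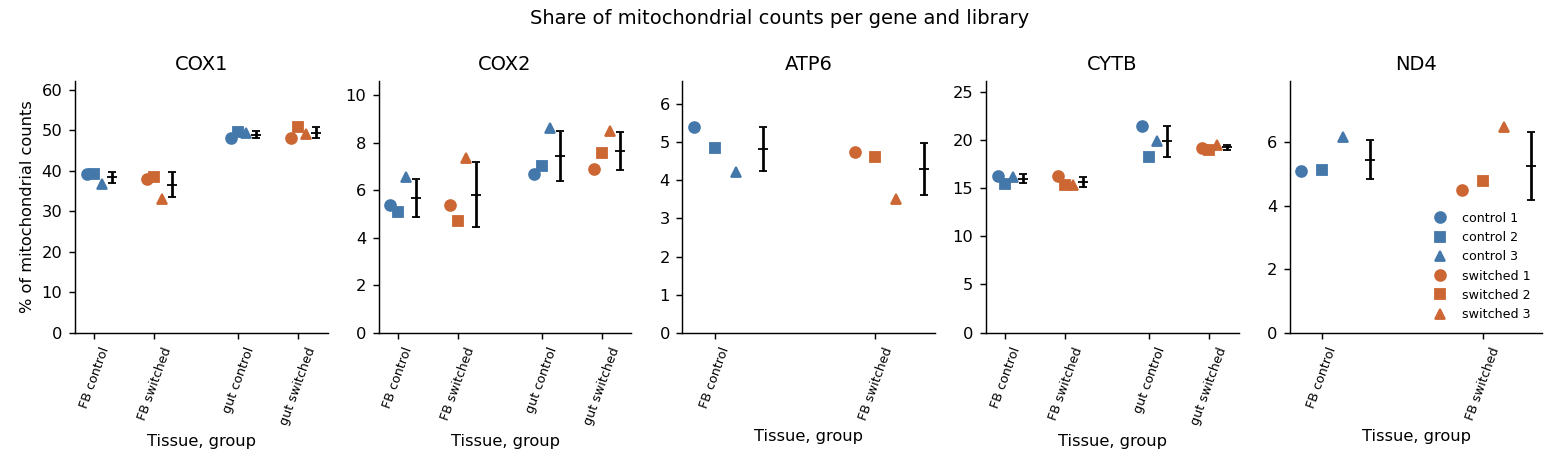
Share of mitochondrial counts (y axis, percent) at COX1, COX2, ATP6, CYTB and ND4 in each library, by tissue (FB, labelled fat body) and group (x axis), with the mean ± SD of 3 libraries. Control and switched libraries overlap in each panel, and ATP6 and ND4 have regions labelled fat body alone.

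No gene had shares that separated the groups, 0 of 11 genes labelled fat body and 0 of 6 labelled gut. The smallest exact two-sided permutation p was 0.2, for ND1, a NADH dehydrogenase subunit gene with 3.85% ± 0.353 in control against 4.17% ± 0.174 in switched flies labelled fat body (SD, n = 3). The smallest Benjamini-Hochberg adjusted value over the genes of that table was 0.686, from the same exact tests. Libraries of the same number labelled fat body had mitochondrial shares that deviated together (r = 0.333, 0.579 and 0.520). Over all regions of that table they did not (r = 0.00351, -0.0235 and -0.0304), so the numbers are not shown to mark pairs. Between libraries of the same number, COX1, ATP6 and CYTB were lower and ND2, ND5 and ND1 higher in the switched library in 3 of 3 pairs. Labelled gut, lrRNA was higher in the switched library in 3 of 3 pairs. An exact sign-flip test of each gave p = 0.25, the smallest that 3 pairs allow, and shares of 1 total are not independent. Mean shares labelled fat body were 3.86% in control and 4.33% in switched flies at ND5, 8.66% and 8.92% at COX3, 4.06% and 4.48% at ND2, 4.02% and 5.00% at lrRNA, and 5.17% and 5.51% at srRNA. Labelled gut, lrRNA held 4.98% and 5.24%, srRNA 9.38% and 9.41%, and ND2 9.22% and 8.93%. The changes of the 6 genes present in both tables were also compared between the tables, with adjusted exact permutation p-values of 0.95. Among single regions at genes, the CYTB region chrM:11300-11398 alone separated the groups, with 2.21% to 2.49% in control and 2.50% to 2.67% in switched libraries labelled fat body (exact permutation p = 0.1, n = 3). The long CYTB region of that table went the other way, with means of 13.6% in control and 13.1% in switched libraries. The separated region was 1 of 17 such regions, a share no larger than that exact permutation p, against 0 of 8 labelled gut.

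Of the 6 genes present in both tables, 3 had shares that went with the replicate number, a pattern picked after the values were seen and given without a test. For COX2 and lrRNA, replicate 3 was highest in all 4 groups, and for ND2 it was lowest in all 4. COX1, CYTB and srRNA had no such place for replicate 3 over the groups. lrRNA, which encodes the RNA of the large mitochondrial ribosomal subunit, held 4.80% in control and 7.54% in switched replicate 3 labelled fat body, and 3.51% to 3.96% in the other 4 libraries. Labelled gut, it held 5.47% and 5.64% in replicate 3 and 4.58% to 5.15% in the others.

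The ratio of COX2 to ND2 counts needs no total. Labelled fat body it was 1.76 in control and 1.75 in switched replicate 3, and 0.968 to 1.37 in the other 4 libraries. Labelled gut it was 1.11 and 1.06 in replicate 3 and 0.683 to 0.867 in the others. The mean of replicate 3 was 1.50-fold that of the other libraries labelled fat body and 1.48-fold labelled gut. Both genes were picked for the place of replicate 3, so within each group their ratio has to be highest there and is not further evidence. The ratio of ND2 to COX1 in replicate 3 was 1.00-fold that of the other libraries labelled fat body and 0.811-fold labelled gut. Both libraries numbered 3 labelled fat body also stood outside the other 4 for ND4, which was higher, and for COX1, ATP6 and COX3, which were lower. That made 6 of 11 genes with replicate 3 apart, against 3 of 6 labelled gut. Other replicate numbers stood apart as well, and their genes were not counted in this way. Labelled gut, both libraries numbered 1 were below the other 4 at COX1 and COX2. Those numbered 2 were above the other 4 at COX1 and below them at CYTB. Labelled fat body, both libraries numbered 2 were below the other 4 at COX2 and above them at ND2. The meaning of a replicate number is not stated in the labels, and its part in these shares was not tested.

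**Figure D4:**
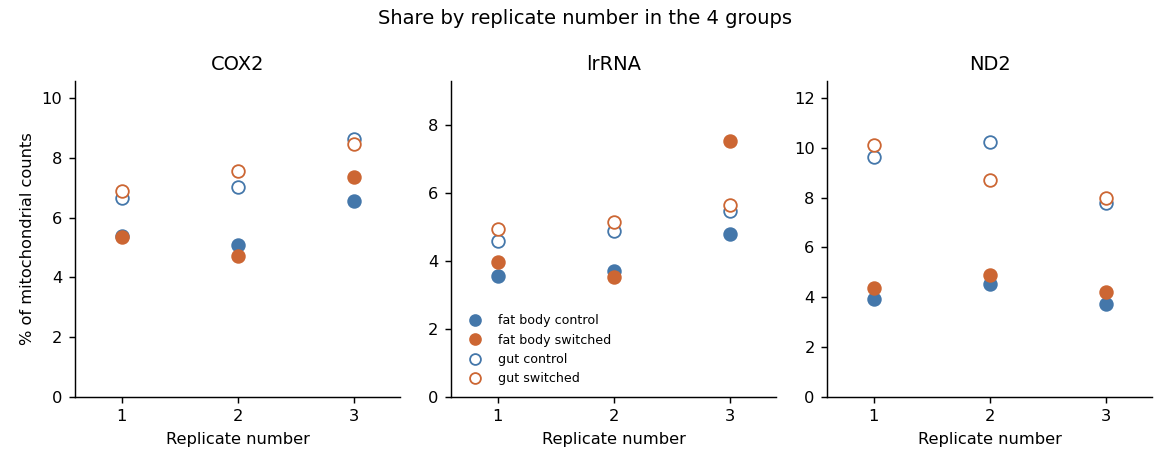
Share of mitochondrial counts (y axis, percent) at COX2, lrRNA and ND2 by replicate number (x axis) in the 4 groups; each point is 1 library. Replicate 3 is highest in each group for COX2 and lrRNA and lowest in each group for ND2.

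At single regions, counts were tested with edgeR's quasi-likelihood test over all regions of a table. Labelled fat body, 0 of 18 mitochondrial regions that passed the filter on low counts were called at a Benjamini-Hochberg adjusted p under 0.05, against 0% of all 1674 tested. DESeq2 also called 0 mitochondrial regions, while it called 77 of all 3447 regions, 66 higher and 11 lower in switched flies. With edgeR, 6 of the 18 had an unadjusted p under 0.05, against 80 of the 1674 tested, or 4.78%. All 18 had log2 fold changes below 0, from -1.31 to -0.42 with a median of -0.76, while the other tested regions had a median of 0.27. Over the scalings that gap of -1.03 ranged from -1.07 with mitochondrial counts as library size to -0.98 with DESeq2. With 1 library left out it ranged from -1.24 without switched replicate 2 to -0.78 without switched replicate 3. The values themselves moved with the scaling: their median was -0.10 with library totals, where the median of all regions went from 0.25 to 0.94, and 0.04 with mitochondrial counts as library size, where 12 of the 18 were above 0.

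COX1 had the most counts. Its long region had 385506, 371697 and 305246 counts in control flies labelled fat body against 265016, 294873 and 187755 in switched flies, which did not overlap, as total counts do not. In scaled CPM they overlapped, with switched replicate 2 at 320991 above control replicate 3 at 274226. In edgeR the log2 fold change was -0.86 ± 0.37 (SE) and the adjusted p 0.948. With no filter on low counts edgeR called 19 of all 3447 regions, 14 higher and 5 lower in switched flies, and this 1 mitochondrial region was among the latter with an adjusted p of 0.033. COX2 had control counts of 56448, 51066 and 58286 against switched counts of 39758, 38563 and 45210. In CPM scaled by edgeR's TMM factors the means were 62813 ± 9857 and 36276 ± 5202 (SD, n = 3) without overlap, and edgeR gave -0.79 ± 0.29 (log2, SE) and an adjusted p of 0.621.

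ND4 had control counts of 53591, 51569 and 54710 against switched counts of 33438, 39013 and 39977. Its scaled CPM of 60739 ± 10191 and 33402 ± 8136 (SD, n = 3) did not overlap either. Its edgeR adjusted p of 0.608 was the smallest of the mitochondrial regions, at -0.86 ± 0.31 (log2, SE). ATP6 had control counts of 56649, 48989 and 37571 against switched counts of 35281, 37819 and 21624, where control replicate 3 lay just below switched replicate 2. edgeR gave -0.96 ± 0.41 (log2, SE) and an adjusted p of 0.953. The long CYTB region had 144895, 132997 and 122472 against 101737, 105164 and 77813 counts, without overlap before scaling. In scaled CPM switched replicate 2, at 114479, was above control replicate 3, at 110026, and edgeR gave -0.85 ± 0.34 (log2, SE) and an adjusted p of 0.851.

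In scaled CPM every switched library was below every control library at 5 of the 18 mitochondrial regions, those at COX2 and ND4, 1 each at lrRNA and srRNA and 1 without a gene, against 5.5% of all tested regions. These regions share the amount of mitochondrial DNA in a library and are not separate pieces of evidence. Without both libraries numbered 3, a setting added after the values were seen, the median of the mitochondrial regions was -0.84, edgeR called 0 of them and 9 of the 18 had an unadjusted p under 0.05, against 10.7% of the 1769 regions tested there. With the mitochondrial counts as library size, the regions of the 5 named genes ranged from -0.17 to 0.12 on the log2 scale.

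**Figure D5:**
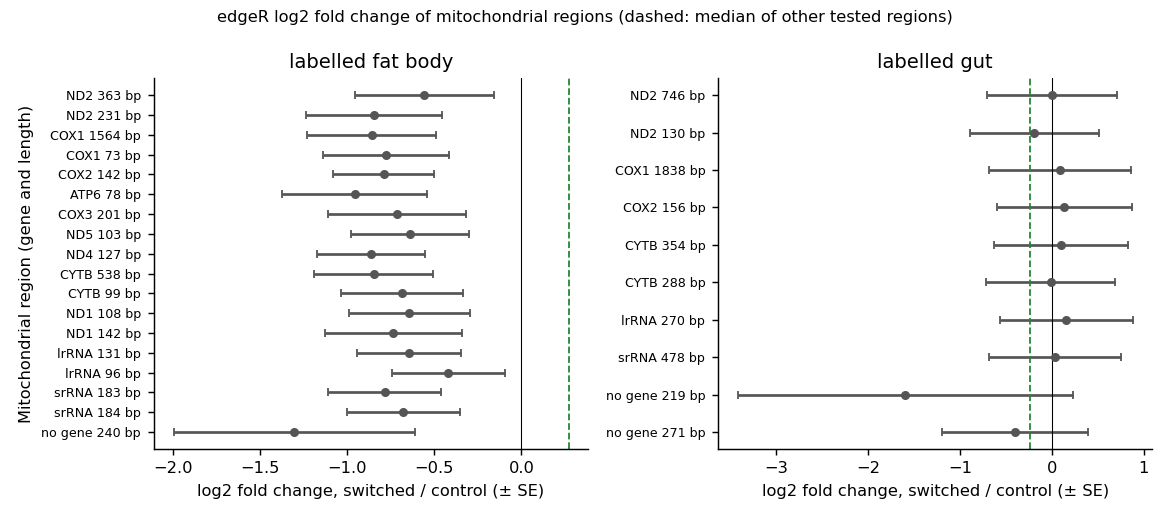
edgeR log2 fold change of switched against control (x axis, ± SE) for each tested mitochondrial region in genome order (y axis), labelled fat body (left) and labelled gut (right). All 18 regions labelled fat body are below 0, with a median of -0.76 against 0.27 for the other regions under TMM scaling (0.04 with mitochondrial counts as library size), and those at genes labelled gut lie between -0.19 and 0.16.

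Labelled gut, edgeR called 0 of 10 mitochondrial regions, against 0% of all 1944 tested, and 0 had an unadjusted p under 0.05. DESeq2 called 0 as well. COX1 had control counts of 36985, 275436 and 199625 against switched counts of 37147, 290901 and 249254, and edgeR gave 0.09 ± 0.77 (log2, SE). COX2 had 5134, 38996 and 34907 against 5313, 43162 and 42888 counts and 0.14 ± 0.74 (log2, SE). The CYTB regions had 0.10 ± 0.73 and -0.01 ± 0.70 (log2, SE). These SEs of 0.70 to 0.77 compare with 0.29 to 0.41 at the named genes labelled fat body. All 4 values were below 0 without control replicate 1 and without switched replicate 3, with -0.43 as the lowest. In scaled CPM, 0 of 10 mitochondrial regions had every switched library below every control library, against 7.15% of all tested regions.

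Past the last annotated gene, srRNA, which ends at position 14916, lies the A+T-rich control region, from which replication starts. Both tables had regions there with few counts. How reads in this stretch were mapped is not stated, so few counts there do not show that Tn5 cut little. Labelled fat body, chrM:19161-19400 had control counts of 303, 418 and 392 against switched counts of 189, 265 and 92, so that every switched library was lower before scaling. edgeR gave -1.31 ± 0.69 (log2, SE) and an adjusted p of 0.984. The overlapping chrM:19152-19422 labelled gut had 138, 423 and 382 against 79, 193 and 444 counts, where the groups overlap. Levels there were 0.130% and 0.353% of mitochondrial counts per kb. Of the other regions without a gene, 1 labelled gut had 5 to 22 counts per library, and 2 labelled fat body had 0 to 26 and 0 to 1. A count of 0 allows up to 0.000488% of the mitochondrial counts in the shallowest library of the latter.

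Most subunits of the respiratory chain are encoded in the nucleus, and 97 such genes and genes of mitochondrial DNA and biogenesis were listed by name. Labelled fat body, Marf, a mitofusin gene of outer membrane fusion, was the 1 gene of the 97 with a region, which did not pass the filter. Labelled gut, 12 had a region and 11 a tested one, in 13 regions. edgeR called 0 of these 13 regions, 7 were above and 6 below 0, and their median log2 fold change was 0.19, against -0.23 for all tested regions.

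The highest values labelled gut were at ND-15, a NADH dehydrogenase subunit gene that carries 3 of the 13 regions. One of them had 0, 6 and 24 control counts against 0, 76 and 36 switched counts and 1.56 ± 1.88 (log2, SE), and another 1.12 ± 0.98. The lowest was mtTFB1, a gene of mitochondrial transcription factor B, with 5, 19 and 15 against 0, 8 and 2 counts and -2.38 ± 1.70 (log2, SE). ATPsynF, a subunit gene of the ATP synthase, had 17, 52 and 62 against 0, 55 and 0 counts and -2.00 ± 1.71. TFAM, which packs mitochondrial DNA, had 0, 41 and 21 against 0, 53 and 55 counts and 0.77 ± 1.74. In raw counts the groups overlap in each of these. Scaled by depth, the means were 34.9 ± 5.33 CPM in control against 5.97 ± 6.23 in switched libraries at mtTFB1 and 119 ± 31.1 against 28.5 ± 49.4 at ATPsynF (SD, n = 3), and there every switched library was below every control library, as at 7.15% of all tested regions. None of these regions passed the edgeR test.

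Among nuclear regions with counts in all 6 libraries of a table, those that followed the mitochondrial counts most closely were named by Pearson's r of log2 CPM over the 6 libraries. Labelled gut, these lay in Atpalpha, the sodium pump subunit gene (r = 0.988), in ERp44 (r = 0.862) and in CG9674 (r = 0.847), of 524 such regions. The Atpalpha region had 1, 56 and 17 control counts against 4, 31 and 56 switched counts. Labelled fat body, they were a pair of regions without a gene within 1000 bp on chromosome arm 2R (r = 0.829 and 0.823) and 1 in Dhc98D, a dynein heavy chain gene (r = 0.813), of 618. The points share their library totals, and with so many regions ranked the highest values are a description only.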

How the data were processed

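Each tissue has 1 table of whole-number read counts per region, deposited by the authors without normalization. The submitters' processing notes name MACS2 and featureCounts, beside FastQC, Trimmomatic and DESeq2, and give neither versions nor roles. Not given in the sources used here are the aligner, the treatment of duplicate and mitochondrial reads, any shift to the Tn5 cut site and the pooling of libraries for peaks. Duplicates left in the counts would raise them most where reads are dense, as on the mitochondrial genome. Scaffold names are those of build dm6, and genes came from RefSeq's table of Release 6 plus ISO1 MT.

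The members and the gene and marker lists were chosen with earlier results of these data known. A region counts for the mitochondrial gene of largest overlap, and elsewhere for a gene it overlaps or the nearest within 1000 bp. Shares were compared by exact two-sided permutation tests over libraries (Python 3.11.15, scipy 1.17.1). Regions were tested in R 4.3.3 by the quasi-likelihood F test of edgeR 4.0.16 with TMM factors, keeping 1674 and 1944 regions by filterByExpr (minimum count 10, total 15), with p adjusted over all of them, after a check on simulated counts. The fitted common dispersion, the spread between libraries beyond counting noise, was 1.40 labelled fat body and 1.38 labelled gut. With 3 libraries per group, a region left uncalled is thus not shown to be unchanged. The SE is the log2 fold change over the square root of F. DESeq2 1.42.0 was an alternative, with no adjusted p for 1328 and 10 regions. Other alternatives were other scalings, no filter, each library left out and the replicate block. Intervals of 95% (Clopper-Pearson) on a region's share were at most 0.230 percentage points wide labelled fat body and 0.707 labelled gut. They cover counting error only, as does the limit of 3 counts set for a count of 0. Every pair of libraries differed beyond counting noise.

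Named were the 5 genes in every library and other mitochondrial genes by ranges. Also named were the 3 nuclear regions per table most like the mitochondrial share, and the 2 highest and 2 lowest regions of the nuclear lists. TFAM and Marf were added after their values were seen. Replicate numbers were checked as pairs by the correlation of deviations from group means, with 0.1 for every pair as the bound. Over all regions the correlations were 0.367, 0.244 and 0.137 labelled gut, over the bound, and 0.00351, -0.0235 and -0.0304 labelled fat body. Labelled gut, libraries numbered 2 and 3 gave 0.124 and 0.0997 across numbers, close to 0.137. Both libraries numbered 1 are shallow there, and the part of depth was not tested. Over the mitochondrial shares, libraries of the same number gave 0.333, 0.579 and 0.520 labelled fat body (18 regions) and 0.831, 0.791 and 0.224 labelled gut (9 regions). Labelled gut, control replicate 3 correlated more, at 0.460, with switched replicate 2. Both sets include a region without a gene. That labelled gut, chrM:19152-19422, had 79 to 444 counts per library, and correlations without it were not computed.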

Additional observations from a re-analysis of the deposited data

How the results depend on the processing

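The mitochondrial share labelled fat body stayed lower in switched flies under every alternative run, by -7.14 to -11.03 points with 1 library left out. With the replicate block it was -8.53 points with an exact sign-flip p of 0.25, the smallest that 3 pairs allow, and the block called 0 mitochondrial regions in edgeR, with 16 of 18 regions labelled fat body at an unadjusted p under 0.05 in place of 6, while the share over all 1674 tested regions was 5.02% in place of 4.78%. It changed no call. Against the null of no change in either tissue, the difference between the tables passed 0.05 with chromosome arms as the rest (-11.0 points, exact p = 0.035). It also did so without switched replicate 2 labelled fat body (exact permutation p = 0.045) and without control replicate 2 labelled gut (exact permutation p = 0.02). The difference ranged from -16.9 to -8.99 points with 1 library left out. Genes whose groups did not overlap numbered 1 (CYTB) as shares of all counts labelled fat body, and 0 to 3 labelled fat body and 0 to 1 labelled gut with 1 library left out, where fewer libraries make separation easier. Without the filter, 1 mitochondrial region labelled fat body was called, of 19 called among all 3447 regions.

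Directions that turned were all of uncalled values. As shares of all counts, COX2 labelled fat body was -0.390 and CYTB labelled gut 0.478 points. With 1 library left out, the share differences labelled fat body ranged from -0.630 to 0.686 points for COX2 and from -0.820 to 0.176 for ND4. Those labelled gut ranged from -0.267 to 1.10 for COX1, from -0.210 to 0.794 for COX2 and from -1.43 to 0.163 for CYTB. With mitochondrial counts as library size, log2 fold changes labelled fat body were 0.00982 at the short COX1 region, 0.0353 at COX2 and 0.117 at the short CYTB region (0.00979, 0.0186 and 0.119 with the replicate block), and that of the first CYTB region labelled gut was -0.00956 (-0.00838 with the block). Without both libraries numbered 3, values labelled gut were -0.23 at COX1, -0.17 at COX2 and -0.21 at the first CYTB region. The second CYTB region was 0.0242 with DESeq2, 0.00788 with DESeq2 size factors, 0.0517 with TMM from nuclear regions, 0.0210 without the filter and 0.0307 without both libraries numbered 1. With 1 library left out, log2 fold changes labelled gut ranged from -0.35 to 0.45 at COX1, from -0.42 to 0.52 at COX2, from -0.39 to 0.47 at the first and from -0.43 to 0.32 at the second CYTB region. The cause was not tested. Both libraries numbered 1 labelled gut are shallow, at 111244 and 99191 counts.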
